A study of Homo sapiens with 12 samples.

Results

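The replication licensing genes are 10 human genes whose proteins load, restrain or serve the DNA replication machinery: MCM2, MCM3, MCM5, MCM6, MCM7, ORC1, CDC6, CDT1, GMNN and PCNA. Their members in the data are the regions of 6 deposited region lists that lie in a gene or within 20 kb of it. The genes were chosen by name and function, and their hg19 boundaries were set to the nearest 1 kb. With the flanks, the windows measured from 46 kb (CDT1) to 77 kb (MCM6) and 0.59 Mb in all. They held 107 of the 169273 regions of the 6 lists.

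The study mapped DNA replication and histone acetylation in 3 human cell lines, namely the embryonic stem cell line H1, the lung fibroblast line IMR90 and the osteosarcoma line Saos-2. Newly made DNA that had taken up the thymidine analogue BrdU was pulled down with an antibody and sequenced (BrdU-Seq). In separate cultures, acetylation of lysine 18 of histone H3 (H3K18ac), a mark that the acetyltransferases EP300 and CREBBP place at active promoters and enhancers, was mapped by chromatin immunoprecipitation. The groups were H1 cells with siRNA against EP300 and CREBBP (H1 knockdown BrdU), H1 cells with Non-Targeting siRNA (H1 control BrdU), and IMR90 and Saos-2 cells without siRNA (IMR90 BrdU, Saos-2 BrdU). H3K18ac was mapped in H1 and IMR90 cells without siRNA. Both siRNA cultures also received 10 µM of HA 1077 (fasudil, a kinase inhibitor) and were harvested after 72 h. The labels give no such treatment for the other cultures. The region lists do not measure EP300 or CREBBP, so the knockdown itself was not checked here. H1 cells were at passage 35 to 45 and IMR90 cells at passage 7 to 12. Each group had 1 library, so groups were not tested against each other. Comparisons of H1 BrdU regions with the other cell lines also differ in siRNA and HA 1077. The 6 lists held 1755 regions (H1 knockdown BrdU), 5086 (H1 control BrdU), 5743 (IMR90 BrdU), 6272 (Saos-2 BrdU), 65946 (H1 H3K18ac) and 84471 (IMR90 H3K18ac). How deeply each library was sequenced is unknown, so a missing region does not show that there was no signal. The labelled cell types were not checked against marker genes, since no hg19 gene annotation was used here.

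Before a cell enters S phase, the origin recognition complex, with ORC1 as a subunit, marks future origins. CDC6 and CDT1 then load the ring-shaped MCM helicase, of which MCM2, MCM3, MCM5, MCM6 and MCM7 are subunits, onto DNA as an inactive pair of rings. Geminin, the product of GMNN, binds CDT1 after S phase has begun and so prevents reloading. PCNA is the sliding clamp that holds the polymerases on the template. Most of these genes are textbook targets of the E2F transcription factors, which switch on S-phase genes in proliferating cells.

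RefSeq promoter sequences were matched by symbol for 9 of the 10 genes, as 13 promoters of the GRCh38.p14 build, each from 250 bases before to 50 after a transcription start. They are shown because H3K18ac lay at the 5′ ends of these genes (described further on). MCM5 had no entry. Each sequence runs 5′ to 3′ along the gene and ends 20 bases into it. Capitals mark matches, on either strand, to 4 E2F motif words: TTTCCCGC, TTTGGCGC, TTTCGCGC and TTTGCCGC. Overlapping matches run together. The sequence set shows the gene with the mark in H1 but not in IMR90 (MCM2), the gene with most matches (MCM6), 2 genes where a marked region had the same ends in both cell lines (ORC1 and CDC6), and both PCNA promoters.
MCM2 (chr3:127598161-127598430, plus strand): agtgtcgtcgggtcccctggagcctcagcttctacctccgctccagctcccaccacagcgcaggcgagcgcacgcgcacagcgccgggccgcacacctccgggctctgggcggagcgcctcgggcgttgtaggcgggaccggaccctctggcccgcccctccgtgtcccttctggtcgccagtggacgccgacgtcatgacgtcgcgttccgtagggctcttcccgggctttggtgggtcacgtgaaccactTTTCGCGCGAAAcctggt
MCM6 (chr2:135876424-135876693, minus strand): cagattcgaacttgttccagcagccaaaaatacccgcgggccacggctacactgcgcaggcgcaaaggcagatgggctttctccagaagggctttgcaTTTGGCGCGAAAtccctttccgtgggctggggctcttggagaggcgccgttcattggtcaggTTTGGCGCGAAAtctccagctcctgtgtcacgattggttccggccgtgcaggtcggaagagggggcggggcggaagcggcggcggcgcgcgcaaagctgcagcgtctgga
ORC1 (chr1:52404404-52404673, minus strand): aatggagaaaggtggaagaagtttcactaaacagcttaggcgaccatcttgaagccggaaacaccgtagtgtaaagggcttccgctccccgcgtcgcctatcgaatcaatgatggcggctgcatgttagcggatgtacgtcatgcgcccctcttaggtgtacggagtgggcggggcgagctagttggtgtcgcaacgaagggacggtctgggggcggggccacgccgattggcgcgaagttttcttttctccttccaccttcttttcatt
CDC6 (chr17:40287629-40287898, plus strand): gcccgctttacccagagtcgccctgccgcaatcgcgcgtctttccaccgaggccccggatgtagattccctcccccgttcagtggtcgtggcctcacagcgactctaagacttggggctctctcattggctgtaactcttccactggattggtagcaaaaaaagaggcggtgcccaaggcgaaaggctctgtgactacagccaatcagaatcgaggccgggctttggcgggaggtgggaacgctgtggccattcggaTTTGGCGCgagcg
PCNA, upstream promoter (chr20:5126603-5126872, minus strand): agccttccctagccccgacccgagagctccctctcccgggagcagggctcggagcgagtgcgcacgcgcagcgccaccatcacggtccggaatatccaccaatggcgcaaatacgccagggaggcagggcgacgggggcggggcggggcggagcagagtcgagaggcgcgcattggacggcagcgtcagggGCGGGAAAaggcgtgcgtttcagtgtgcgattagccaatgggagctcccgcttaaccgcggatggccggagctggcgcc
PCNA, downstream promoter (chr20:5119939-5120208, minus strand): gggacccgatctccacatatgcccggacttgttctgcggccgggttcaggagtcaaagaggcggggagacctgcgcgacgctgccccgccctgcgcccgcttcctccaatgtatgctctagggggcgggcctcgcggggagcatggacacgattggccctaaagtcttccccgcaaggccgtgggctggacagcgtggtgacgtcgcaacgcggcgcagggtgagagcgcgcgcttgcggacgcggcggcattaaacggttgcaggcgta

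An E2F word was present in the promoters of 8 of the 9 genes, all but ORC1, and in 8 of the 13 promoters. Over all 35116 RefSeq promoters of the same length, 3.31% held one. MCM6 carried 4 matches in 2 overlapping pairs, which begin 152 and 90 bases before its start. MCM2 carried 2 matches that overlap from 2 to 13 bases after the start (counting the start as 0). MCM3 and MCM7 carried 2 separate matches each, CDC6, CDT1, GMNN and PCNA 1 each. In MCM7 the match next to the start shares 1 base with a CCAAT box, and in PCNA the match overlaps a GC box.

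The CCAAT box (CCAAT, either strand), bound by NF-Y, was found in 10 of the 13 promoters and the GC box (GGGCGG, either strand), bound by SP1, in 11 of 13. Over all RefSeq promoters the shares were 34.6% and 45.0%. The cell cycle element CHR (TTTGAA, either strand) was found in none of the 13, against 15.2% of all promoters. The promoters were rich in CpG, with 22 to 47 CpG and a median of 33, where the median of all RefSeq promoters was 14. Each E2F word and the GC box hold a CpG, and CCAAT and CHR hold none. The shares over all promoters were not matched for CpG content, and its part in the motif counts was not tested. These matches describe the letters of the reference and show no binding.

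**Figure D1:**
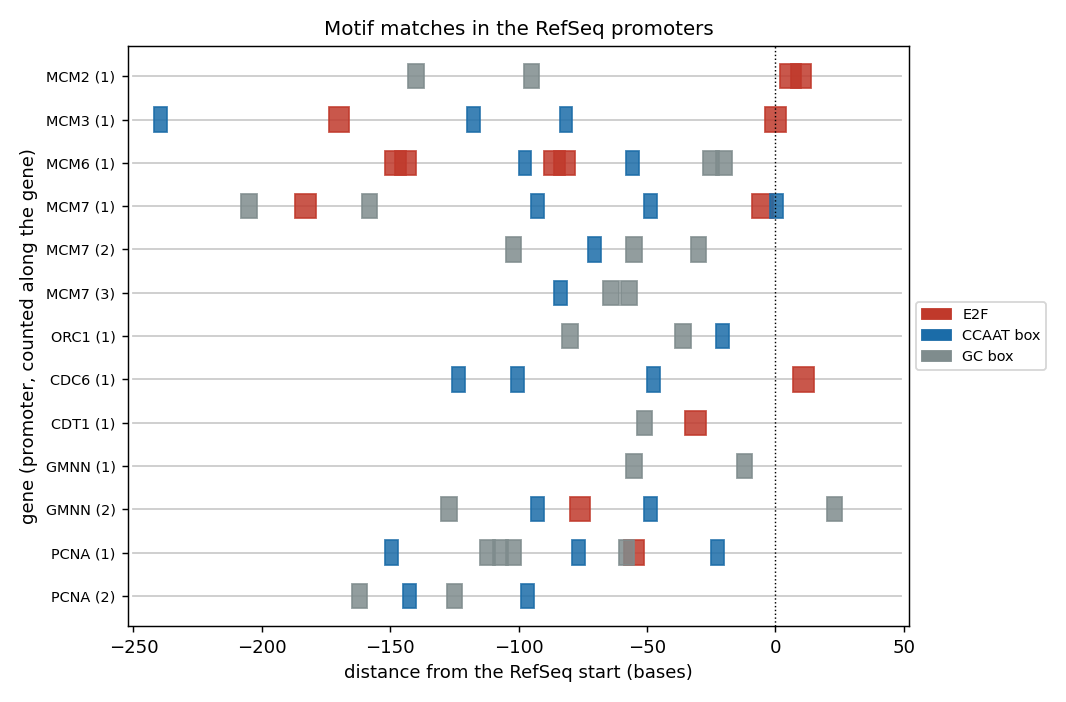
Positions of motif matches in the 13 RefSeq promoters (horizontal axis, bases from the annotated start), 1 row per promoter, with coloured blocks for E2F words, CCAAT boxes and GC boxes. E2F words appear in 8 rows, 1 for each of 8 genes, and CHR elements in none.

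H3K18ac was present in the windows of all 10 genes in both cell lines, mostly as short regions. The H1 list had 52 regions in the windows, from 1 to 13 per gene with a median of 4, and the IMR90 list had 45, from 1 to 11 with a median of 3. All 10 windows held a region in H1 and all 10 in IMR90. Over the genome, 46.1% of 50 kb tiles held an H1 region and 36.8% an IMR90 region. Most windows were somewhat longer than a tile. Per Mb, the windows held 88.1 H1 regions, against 23.6 in the open genome, and 76.3 IMR90 regions, against 30.2. The tiles include DNA without genes, so these values set the windows apart from the average genome and not from other genes.

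By place, 22 H1 regions lay upstream of the genes, 16 in them and 14 downstream, and 14 IMR90 regions lay upstream, 12 in the genes and 19 downstream. The genes differed in the number of regions, whose whole lengths are given, also where one ran past the window. CDT1 had the most H1 regions, with 13 over 4500 bp, against 7 over 4100 bp in IMR90. MCM7 had 10 in H1 over 3200 bp and 11 in IMR90 over 5400 bp. MCM2 had 8 in H1 over 2600 bp, against 1 of 200 bp in IMR90. MCM5 had 7 over 1900 bp in H1, against 3 over 600 bp in IMR90. CDC6 went the other way, with 3 regions over 700 bp in H1 and 9 over 3900 bp in IMR90. MCM3, MCM6 and GMNN each had 1 H1 region in the whole window, at the 5′ end of the gene, and 2, 3 and 2 IMR90 regions. ORC1 had 4 in H1 and 3 in IMR90, and PCNA had 4 in each. By number of regions, H1 was higher at 4 genes, IMR90 at 5, and 1 was equal.

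**Figure D2:**
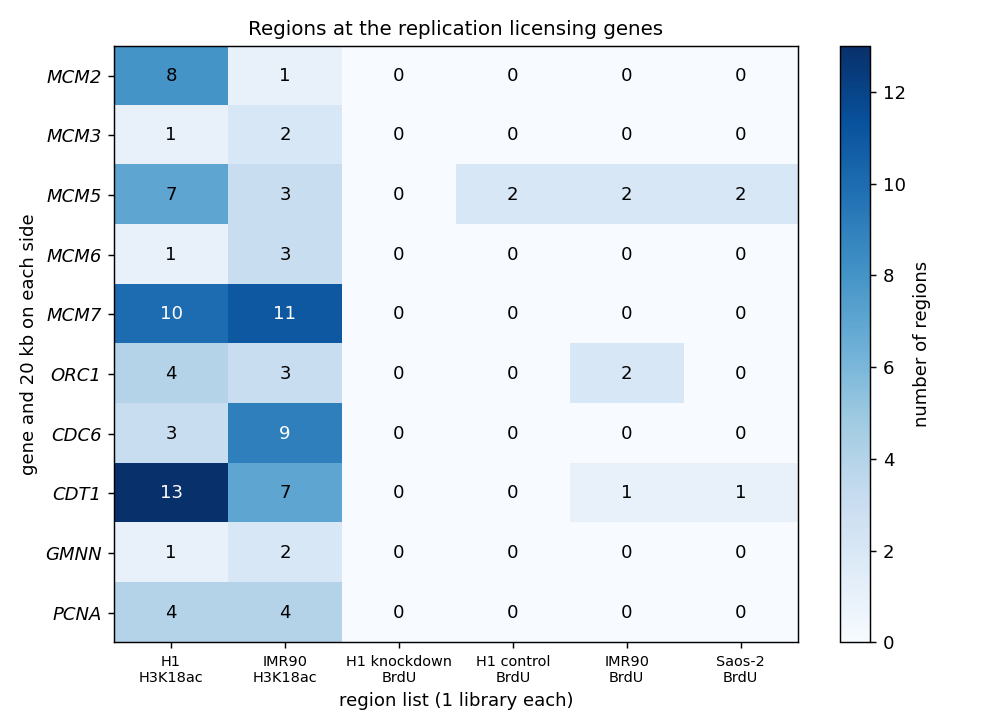
Number of regions in each gene window of 20 kb on each side (rows) for the 6 lists (columns, 1 library each), with darker cells for higher counts. The 2 H3K18ac columns hold 1 to 13 regions for every gene, and the BrdU columns hold 0 for most genes.

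The acetylation concentrated at the starts of the genes. In H1, all 10 genes had an H3K18ac region within 2 kb of the 5′ end, and in IMR90 9 of 10 had one, all but MCM2. Of 4 kb genome tiles, the same width as this window, 7.66% held an H1 region and 7.52% an IMR90 region. In H1, 7900 of the 18800 bp of H3K18ac regions at the genes (42.0%) lay within 2 kb of the 5′ ends, and in IMR90 5400 of 19800 bp (27.3%). The region nearest to the 5′ end began within 1 kb of it at all 10 genes in H1 and at 8 in IMR90.

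Among the helicase subunits, MCM2 had the mark at its 5′ end in H1 and not in IMR90. In H1 a region of 1000 bp lay at 127317301 to 127318300 on chromosome 3, 0.3 to 1.3 kb into the gene. Its score stood above 96.7% of its list, a rank percentile that gives tied scores their average rank. A second region of 100 bp lay just before the 5′ end, at 127316801 to 127316900. The IMR90 list had no region within 2 kb of this 5′ end. Its only region in the window, at 127310201 to 127310400, lay 6.6 kb upstream, and H1 had a longer region of 600 bp at that place.

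MCM5 had a similar order. H1 regions of 800 bp (35795001 to 35795800 on chromosome 22) and 600 bp (35796101 to 35796700) lay on either side of its 5′ end. They scored above 94.8% and 97.7% of the H1 list. IMR90 had 100 bp there, at 35796201 to 35796300, at rank percentile 31.2 of the IMR90 list. The bases covered within 2 kb were 1500 in H1 and 100 in IMR90. The strand of MCM5, which sets its 5′ end, was taken from general knowledge of the gene.

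At MCM6, H1 had 1000 bp at 136632901 to 136633900 on chromosome 2, and IMR90 had 300 bp, at 136633601 to 136633900, with the same end on the side of the promoter. No other region of either list lay in the 37 kb of MCM6 itself. The remaining IMR90 regions, 400 and 300 bp long, lay 19.5 and 18.8 kb beyond its 3′ end, on the side of the lactase gene LCT, the neighbouring protein-coding gene in RefSeq. MCM3 had 400 bp within 2 kb of its 5′ end in each cell line, at 52149101 to 52149500 in H1 and at 52148901 to 52149300 in IMR90 on chromosome 6. These overlap by 200 bp.

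MCM7 held one of the 3 highest-scoring H1 regions of the set, with those near CDT1 and in PCNA. This region of 1100 bp, at 99697901 to 99699000 on chromosome 7, scored above 99.5% of the H1 list and lay inside the gene from its 5′ end on. In IMR90 the longest region near the 5′ end, 1400 bp at 99699401 to 99700800, lay outside the gene, on the side of AP4M1, which RefSeq places next to MCM7 on the opposite strand. A further 200 bp of IMR90 (99698701 to 99698900) lay within the H1 region. The bases covered within 2 kb were 1200 in H1 and 1600 in IMR90.

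Of the loading factors, ORC1 and CDC6 had H3K18ac regions with the same ends in both cell lines. At ORC1 it was 52869601 to 52870000 on chromosome 1, and at CDC6 38444201 to 38444600 on chromosome 17, each 400 bp. Regions lie on a grid of 100 bp, so equal ends mean equal windows. ORC1 also had a region just upstream, 300 bp in H1 (52870401 to 52870700) and 100 bp in IMR90 (52870401 to 52870500), toward PRPF38A, its neighbour on the opposite strand. In their own lists the ORC1 regions at 52869601 scored above 96.8% in H1 and 60.7% in IMR90, and the CDC6 regions above 93.9% and 65.2%. Ranks from lists of different lengths show no change between cell lines.

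At CDT1 the highest H1 region within 2 kb of the 5′ end, 300 bp at 88870501 to 88870800 on chromosome 16, scored above 74.9% of the H1 list. This was the lowest such rank of the 10 genes in H1. H1 covered fewer bases here, with 400 bp in 2 regions, against 900 bp in 3 regions in IMR90. The longest H1 region of all windows, 2000 bp at 88877101 to 88879100, lay 1.1 kb beyond the 3′ end of CDT1. It scored above 99.6% of the H1 list. APRT, the purine salvage enzyme, is the next gene on that side, and IMR90 had 600 and 700 bp at the same place.

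GMNN, the inhibitor, had a short H1 region of 300 bp at 24775201 to 24775500 on chromosome 6, with a score above 96.6% of its list. IMR90 covered 1100 bp, in regions of 400 bp (24775001 to 24775400) and 700 bp (24775701 to 24776400). GMNN was the gene with the fewest bases within 2 kb in H1, and MCM5 the one with the most.

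PCNA, the clamp, had its highest-scoring H1 region not at the 5′ end but inside the gene. A region of 1100 bp, at 5099501 to 5100600 on chromosome 20, lay 6.4 to 7.5 kb into the gene and scored above 99.5% of the H1 list. IMR90 had 3 regions of 300 bp each, 5.8 to 7.5 kb into the gene. RefSeq lists 2 PCNA promoters, whose starts are 6664 bp apart in GRCh38, and both are printed with the sequences. Positions were not converted between builds, so whether this region lies on the downstream start was not tested. At the 5′ end itself H1 had 800 bp upstream (5107801 to 5108600) and 100 bp inside, and IMR90 had 100 bp upstream (5108001 to 5108100).

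**Figure D3:**
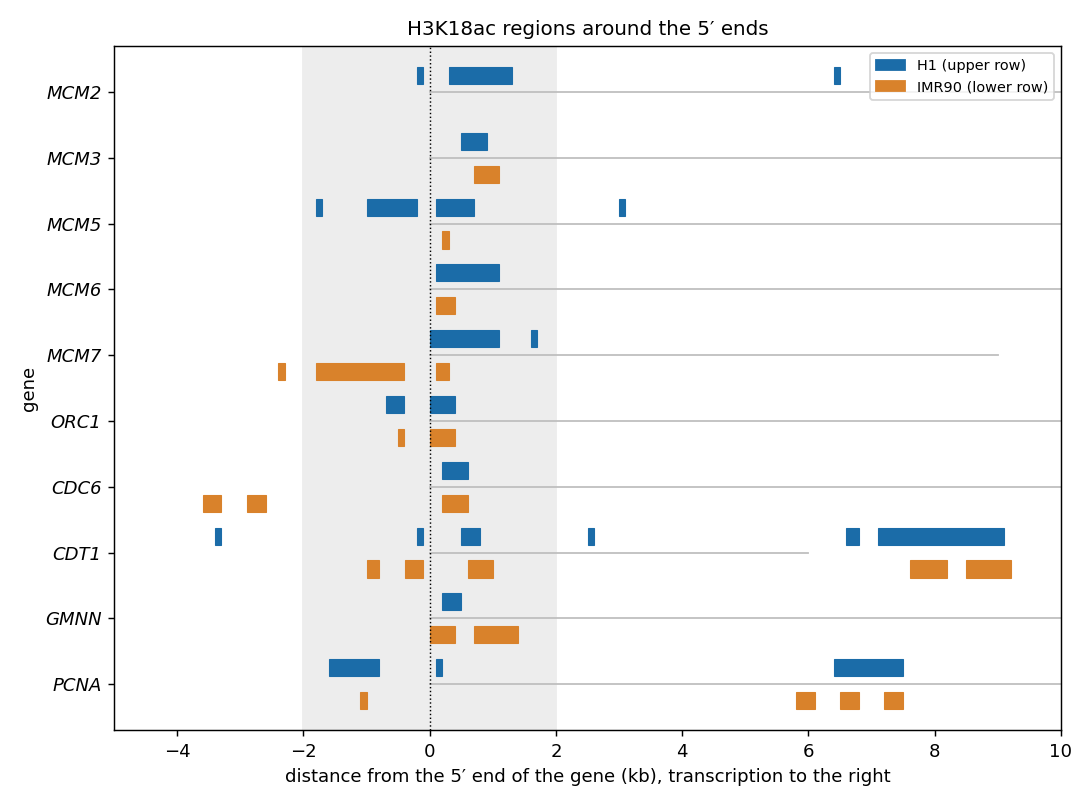
H3K18ac regions from 5 kb before to 10 kb after the 5′ end of each gene (horizontal axis in kb), with H1 in the upper and IMR90 in the lower row of each gene, the gene as a grey line and 2 kb on each side of the 5′ end shaded. Every gene has an H1 block in the shaded window, and every gene but MCM2 an IMR90 block.

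Over the 10 genes, H1 regions covered from 300 to 1500 bp within 2 kb of the 5′ end, with a median of 800 bp, and IMR90 regions from 0 to 1600 bp, with a median of 400 bp. The ranges overlap. H1 covered more bases at 5 genes (MCM2, MCM5, MCM6, ORC1 and PCNA), IMR90 at 3 (MCM7, CDT1 and GMNN), and MCM3 and CDC6 were equal. Among 4 kb genome tiles with a region of either list, H1 covered more in 48.4%, so a count of 5 in 10 is near the background. The H1 sum was 1.46 times the IMR90 sum at the 5′ ends. By whole lengths of the regions that touch the windows, it was 0.949 times. IMR90 regions at CDT1 (88849201 to 88851000) and CDC6 (38478401 to 38479700) run past the windows, so 0.949 gives no order within them. Over the whole lists, the H1 regions covered 0.399 times as many bases as the IMR90 regions. With 1 library each, these ratios carry no replicate error.

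**Figure D4:**
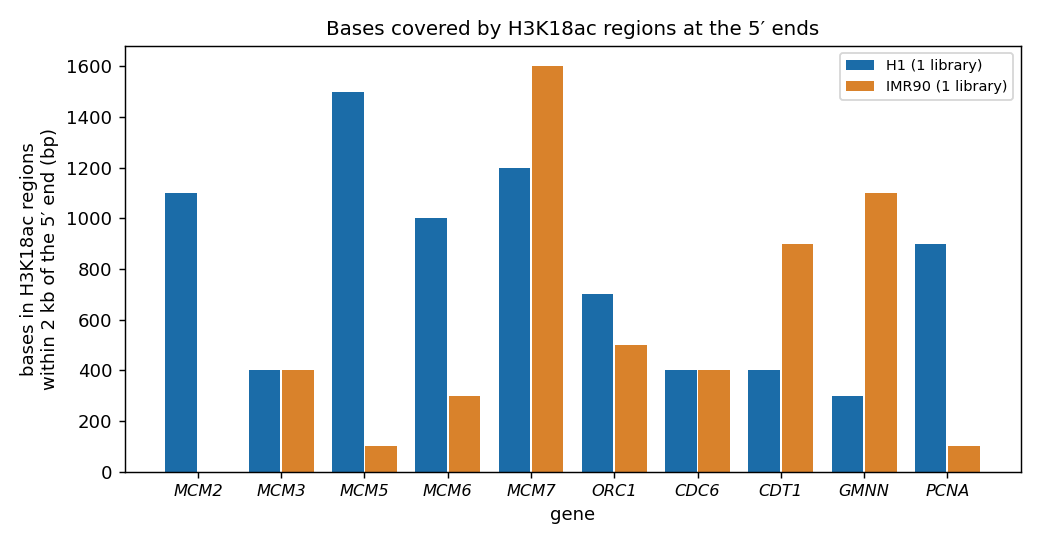
Bases in H3K18ac regions within 2 kb of the 5′ end of each gene, with H1 bars left of IMR90 bars (1 library each, no error bars). H1 bars reach 1500 bp at MCM5, IMR90 bars reach 1600 bp at MCM7, and the IMR90 bar of MCM2 is 0.

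At several starts the regions stood on both sides of an uncovered stretch. At ORC1 this stretch was the same in both cell lines, 400 bp between the regions that end at 52870000 and begin at 52870401. In H1, MCM2, MCM5, CDT1 and PCNA also had a region on each side of the 5′ end, and in IMR90 MCM7 and CDT1 did. In each of the lists, neighbouring regions were at least 300 bp apart, so shorter gaps could not be seen. The 5′ ends are known to 1 kb, so the place of the start within a stretch is not resolved.

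Many of the regions at these genes were shared between the cell lines, a larger share than in the whole lists. The whole lists are not limited to genes, so this comparison does not set these genes apart from other genes. Of the 52 H1 regions, 25 overlapped an IMR90 region (48.1%, exact binomial 95% interval 34.0 to 62.4, counting error only), and over the whole H1 list 19.0% did. Of the 45 IMR90 regions, 27 overlapped an H1 region (60%, 44.3 to 74.3), and over the whole IMR90 list 14.5% did. Within 2 kb of the 5′ ends the shares were 11 of 17 in H1 (64.7%, 38.3 to 85.8) and 11 of 14 in IMR90 (78.6%, 49.2 to 95.3). Farther away they were 14 of 35 (40%, 23.9 to 57.9) and 16 of 31 (51.6%, 33.1 to 69.8), and these intervals overlap those at the 5′ ends. All these intervals treat regions of the same gene as independent, so they do not test the difference. The median length of H1 regions was 400 bp at the 5′ ends, 200 bp farther away in the windows and 100 bp in the whole H1 list. The median length of IMR90 regions was 350 bp at the 5′ ends, 300 bp farther away and 300 bp in the whole IMR90 list. The part of length in these shares was not tested.

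Away from the starts, several longer regions lay toward neighbouring genes. Beyond the 3′ end of CDC6, on the side of RARA, a retinoic acid receptor gene, H1 had 200 bp (38473401 to 38473600). IMR90 regions of 800 bp (38472801 to 38473600) and 1300 bp (38478401 to 38479700) began 13.8 and 19.4 kb beyond the same end. Beyond the 3′ end of MCM7, toward the signalosome subunit gene COPS6, H1 had 2 regions of 300 bp between 99683801 and 99687500, and IMR90 had regions of 800, 1300 and 800 bp. A further H1 region of 700 bp (99678501 to 99679200) overlapped 100 bp of IMR90. Upstream of CDT1, H1 had 400 bp (88850401 to 88850800) inside the highest-scoring IMR90 region of that window, which was 1800 bp long (88849201 to 88851000). Beyond the 3′ end of ORC1, both lists had a region, of 700 bp in H1 (52830901 to 52831600) and 1100 bp in IMR90 (52830601 to 52831700).

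The BrdU lists were shorter than the H3K18ac lists and gave 10 regions at the licensing genes in all. The H1 knockdown list had 0 regions in the 10 windows and the H1 control list 2, both at MCM5. IMR90 had 5 regions, at MCM5, ORC1 and CDT1, and Saos-2 had 3, at MCM5 and CDT1. Of the 10 genes, 0 had a region in the H1 knockdown list, 1 in H1 control, 3 in IMR90 and 2 in Saos-2. Of 50 kb genome tiles, 2.96% held an H1 knockdown region, 7.57% an H1 control region, 7.73% an IMR90 region and 8.34% a Saos-2 region. The count of genes was above the tile share in IMR90, on 3 genes. It was closer to that share in Saos-2, on 2 genes, and in the H1 lists, on 0 and 1 gene. Most windows were longer than a tile, so counts and tile shares are not matched for length. With flanks of 10 kb, 1 gene had a region in IMR90 and 1 in Saos-2. Per Mb, the windows held 0 H1 knockdown regions, against 0.628 in the open genome, and 3.39 H1 control regions, against 1.82. They held 8.47 IMR90 regions per Mb, against 2.06, and 5.08 Saos-2 regions per Mb, against 2.25. IMR90 BrdU regions covered 0.186% of the windows, against 0.0435% of the open genome, and Saos-2 regions 0.186%, against 0.0738%. These densities rest on 2 to 5 regions a list where any were found, and on 1 library each. None of the 10 BrdU regions lay within 2 kb of a 5′ end, and 9 lay beyond the 3′ end of the gene as set here. Regions of different lists at the same place, at MCM5 and at CDT1, were counted separately. The 4 kb around each 5′ end are a small part of windows of 46 to 77 kb. Shares by place over all BrdU regions were not computed, so these counts show no preference for a place.

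MCM5 was the only gene of the set with BrdU regions in all 3 cell lines. H1 control had 2 regions of 200 bp, at 35834301 to 35834500 and 35834801 to 35835000 on chromosome 22. IMR90 had 500 bp at 35834201 to 35834700 and Saos-2 800 bp at 35834301 to 35835100. The H1 knockdown list had none in the window, and its nearest region lay 56.1 kb from the gene. The common place begins 14.2 kb beyond the 3′ end of MCM5 as set here. The current RefSeq gene model of MCM5 is longer, at 54892 bp in GRCh38 against 24 kb here, and whether the place falls inside that model was not tested.

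The first of the H1 control regions overlapped both other cell lines, as 16.7% of all H1 control regions did, and the second overlapped Saos-2 alone. These regions scored above 69.7% and 66.9% of the H1 control list, the IMR90 region above 82.8% of its list and the Saos-2 region above 83.9%. IMR90 had a further region of 300 bp at 35837601 to 35837900. Saos-2 had a further region of 100 bp at 35812801 to 35812900, within the gene, at rank percentile 9.84 of its list. It was the only BrdU region inside any of the 10 genes as set here.

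At CDT1 the IMR90 region (88892601 to 88892700) and the Saos-2 region (88892601 to 88892800) began at the same base on chromosome 16, 16.6 kb beyond the 3′ end. Their rank percentiles were 37.2 and 21.7 in their lists. At ORC1, IMR90 alone had regions, 100 bp each at 52831901 to 52832000 and 52820401 to 52820500 on chromosome 1. Their rank percentiles were 10.2 and 27.1 in the IMR90 list.

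None of the 2 H1 control and 5 IMR90 BrdU regions overlapped an H3K18ac region of the same cell line. Over the whole lists, 8.75% of H1 control BrdU regions overlapped H1 H3K18ac and 2.44% of IMR90 BrdU regions overlapped IMR90 H3K18ac, so 0 of 2 and 0 of 5 are near the background. The H1 control regions at MCM5 lay 20.2 and 19.7 kb from the nearest H3K18ac region of H1 cells without siRNA. The IMR90 regions at MCM5 lay 7.3 and 4.1 kb from IMR90 H3K18ac, that at CDT1 8.1 kb, and those at ORC1 10.1 and 0.2 kb. The closest, at 52831901, was 200 bp from the IMR90 H3K18ac region of 1100 bp beyond the 3′ end of ORC1. H3K18ac in Saos-2 was not analysed here.

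**Figure D5:**
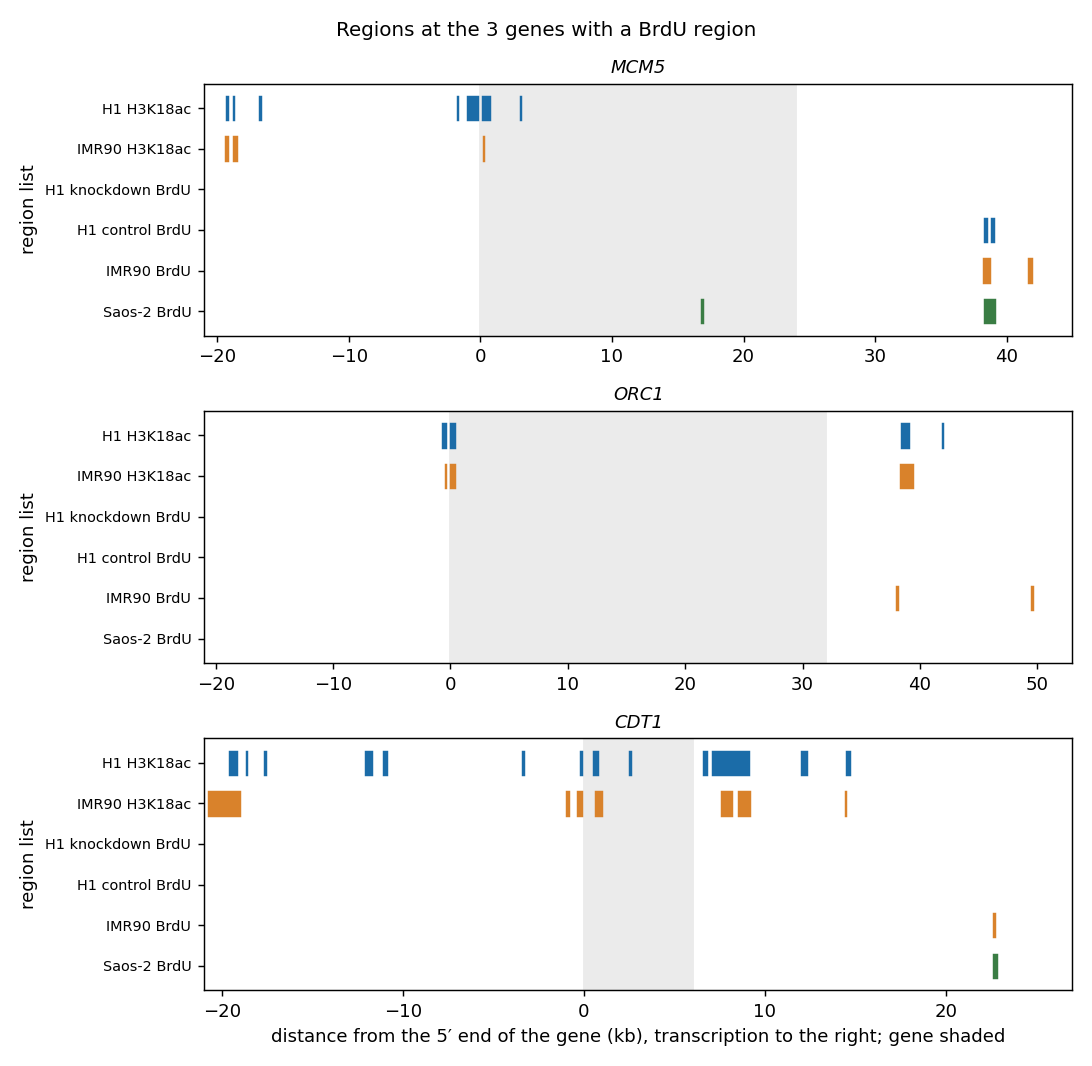
Regions of the 6 lists across the windows of MCM5, ORC1 and CDT1 (horizontal axis, kb from the 5′ end; gene shaded), 1 row per list, with block outlines that slightly widen the shortest regions. BrdU blocks lie to the right of the shaded gene, apart from 1 Saos-2 block in MCM5. H3K18ac blocks lie near 0 kb at each gene and also farther away.

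The other 7 genes had no BrdU region within 20 kb in any list. Just outside this limit, the nearest regions to MCM7 lay 21.9 kb away in IMR90 and 23.5 kb away in H1 control, and just inside it IMR90 regions lay 17.6 kb from MCM5 and 17.5 kb from ORC1. MCM2 had regions 30.8 kb away in H1 control, 34.2 kb in IMR90 and 34.1 kb in Saos-2, and the IMR90 and Saos-2 regions overlapped each other. At MCM6 the nearest region lay 2006 kb away in the H1 knockdown, 1132 kb in H1 control, 2465 kb in IMR90 and 251 kb in Saos-2. Over the 10 genes, the median distance to the nearest BrdU region was 396 kb in the H1 knockdown and 156 kb in H1 control. It was 90.8 kb in IMR90 and 106 kb in Saos-2. The H1 knockdown list held 1755 regions, against 5086 in H1 control, and the part of list length in these distances was not tested.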

How the data were processed

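The authors deposited 6 region lists, 1 for each library from a pull-down, with chromosome, start, end and a whole-number score per region. Alignment used Bowtie 0.12.7 and hg19, per the submitters' processing notes. Not given in the sources used here: the region caller, its threshold and whether the 6 inputs were used. The meaning of the score that the authors deposited is not stated either, so it only ranked regions within a list. Shares scored above are rank percentiles, with tied scores at their average rank. Where many scores are tied, fewer regions scored strictly lower.

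The members and lists were chosen with earlier results of these data known. Regions with at least 1 bp in a gene or its 20 kb flanks were counted (Python 3.11.15, pandas 2.3.3, numpy 2.4.6, scipy 1.17.1, matplotlib 3.10.9). Their lengths were summed whole, also where a region ran past the flank. Bases within 2 kb of the 5′ ends were cut at 2 kb. The open genome is the 500 kb bins that hold a region of any list, 2793.5 Mb, divided into tiles. The counting code was tested on simulated lists. The text names all 10 genes, their BrdU regions, and H3K18ac regions near the 5′ end or of high score. The H3K18ac regions beyond the genes and upstream of MCM2 were chosen after their values were seen. No hg19 annotation was used, so further licensing genes were not counted. Neighbouring genes are from RefSeq GRCh38, by order only. Libraries are single, and depth and replicate error are unknown.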

Additional observations from a re-analysis of the deposited data

How the results depend on the processing

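No paired analysis was possible because each group has 1 library. The genes with H3K18ac at the 5′ end stayed at 10 in H1 at 1 kb, at 5 kb and with the upper 50% of regions by score, and were 8, 9 and 6 in IMR90. With genes alone (no flank), H1 H3K18ac had 16 regions, IMR90 H3K18ac 12, H1 control BrdU 0, IMR90 BrdU 0 and Saos-2 BrdU 1, at 0, 0 and 1 genes for BrdU. With flanks of 10 kb, BrdU regions numbered 0 in H1 control, 1 in IMR90 (1 gene) and 1 in Saos-2 (1 gene). With flanks of 50 kb they numbered 5 (3 genes), 8 (5 genes) and 8 (4 genes), and H3K18ac regions 84 in H1 and 76 in IMR90. The H1 knockdown list had 0 regions with flanks of 10 kb, of 50 kb and without flanks. The upper 50% by score left 32 and 27 H3K18ac regions in H1 and IMR90, 2 BrdU regions in IMR90 (1 gene) and 1 in Saos-2 (1 gene). Merging within 1 kb gave 34 and 25 H3K18ac regions, and 1 BrdU region in H1 control. The part of window size and list size in these changes was not tested. Tiles of 100 kb held a region in 5.76% (H1 knockdown BrdU), 13.6% (H1 control BrdU), 13.2% (IMR90 BrdU), 14.3% (Saos-2 BrdU), 63.8% (H1 H3K18ac) and 50.6% (IMR90 H3K18ac). The share of H1 H3K18ac regions found in IMR90 ranged from 34.6% with an overlap of 50% to 57.7% within 1 kb. The share over the whole H1 list, 19.0%, was computed only for an overlap of at least 1 bp, so it does not match these settings.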
